A study of Mus musculus with 14 samples.

Results

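Gonadal white adipose tissue (gWAT) of mice lacking FHL2 was compared with gWAT of wild-type (WT) mice across the transcriptome, with 3 WT and 3 knockout (KO) libraries, replicates 1, 3 and 4 of each genotype. They are 6 of the 14 libraries of a study whose other libraries are from heart. The labels give C57BL/6 as strain, 21 weeks as age and 8 weeks of high-fat diet for every mouse, so that both groups ate the fattening diet and no lean group is included. The KO mice are labelled FHL2-/-. The labels give neither the part of the gene that was removed nor the sex of the mice. Whether libraries came from separate animals is not labelled, and p-values here reflect only how far these libraries differ from each other, which may be technical. Of 33459 gene identifiers counted, 15200 had enough reads to be tested. Totals were 15105019 to 16040188 reads per gWAT library.

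FHL2 is a LIM-domain protein without enzymatic activity of its own, which binds transcription factors, integrins and signalling proteins. Gonadal fat stores triglyceride in large adipocytes that take up glucose and fatty acids, make the glycerol backbone of triglyceride, and release fatty acids again by lipolysis under adrenergic control. On a high-fat diet the depot expands and gains macrophages, which engulf lipid and dying adipocytes and are rich in lysosomes. Its outer surface is covered by mesothelium, and between adipocytes lie vessels, nerves, fibroblasts and progenitors. Whole tissue was sequenced here, and in whole tissue fewer cells of a type and less RNA per cell cannot be told apart.

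Levels below are CPM (read counts scaled to a common library size), in the order of replicates 1, 3 and 4. Fold changes are log2 of KO over WT ± standard error (SE), and a gene was called at a Benjamini-Hochberg adjusted p under 0.05 over all tested genes in edgeR. Fhl2 (ENSMUSG00000008136; chromosome 1, 43123074 to 43196984, minus strand, GRCm38) was at 4.35, 6.26 and 5.70 CPM in WT and at 0.462, 0.257 and 0.451 CPM in KO libraries. The groups did not overlap, and the gene fell (−3.78 ± 0.31, adjusted p = 0.0101) on only 257 WT and 18 KO reads.

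Across the transcriptome 834 genes were called, 5.49% of those tested, with 305 higher (2.01%) and 529 lower (3.48%) in KO. Without regard to the test, KO and WT libraries did not overlap for 13.3% of genes on the higher side and 14.5% on the lower side. The median log2 fold change of all genes was 9.32e-05 and the quartiles −0.22 and 0.216. Protein-coding genes made up 291 of the higher and 507 of the lower calls. The share called grew with the level, from 1.86% of genes under a mean of 1 CPM to 10.7% of the 103 genes at 1000 CPM or more. Abundant genes that rose were Car3 (carbonic anhydrase of adipocytes), Pck1, Apoe, Ccdc80 and Txnip. Abundant genes that fell were Psap, Ctsd, Ctsl, the glycerol-phosphate dehydrogenase Gpd1 and Mfge8, a secreted bridge for engulfing dying cells. Car3 was at 11400, 5590 and 7490 CPM in WT and at 20500, 17900 and 19300 CPM in KO libraries (1.24 ± 0.29, adjusted p = 0.0499).

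**Figure D1:**
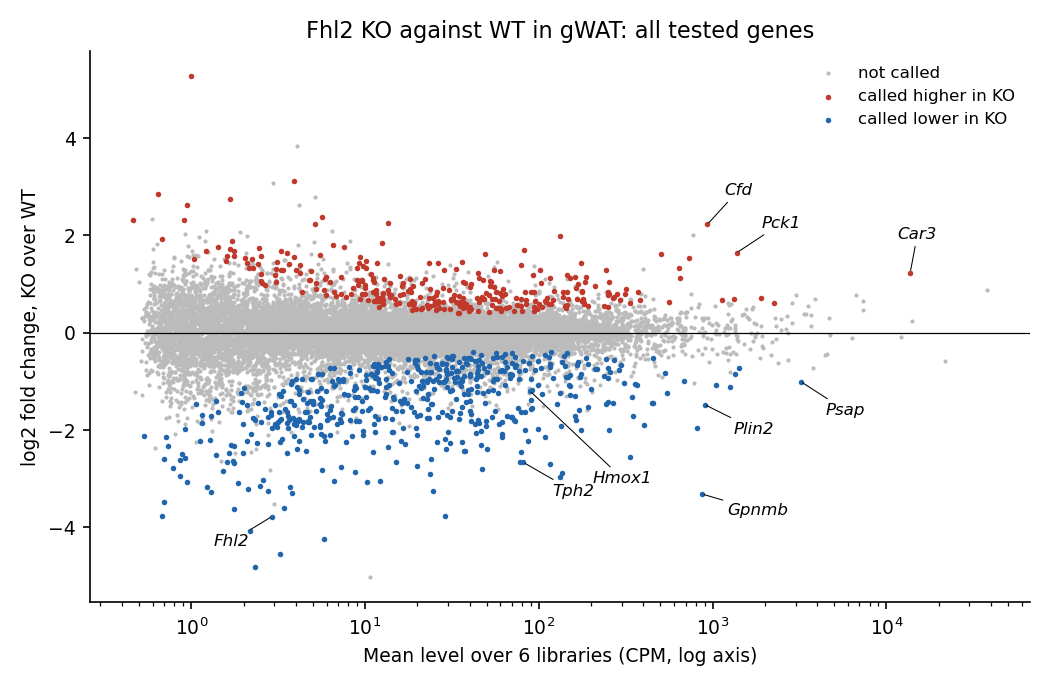
Mean level over the 6 gWAT libraries (x, CPM on a log axis) against log2 fold change of KO over WT (y) for the 15200 tested genes. Red points are the 305 genes called higher and blue points the 529 called lower in KO by edgeR at an adjusted p under 0.05, and the lower calls reach larger fold changes (352 at 2-fold or more, against 117 of the higher calls).

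The number of calls changed strongly with 1 library left out: 2908 genes were called without WT replicate 1, 132 without WT replicate 3, and 0 without WT replicate 4 or without KO replicate 1, 3 or 4 (2374, 3191, 2736 and 2787 genes at an unadjusted p under 0.05 in edgeR). Every call named below is therefore lost in the last 4 of these fits. All 6 fits hold 1 library fewer than the main fit, and the reason for their different counts was not tested. All 834 genes kept their direction in all 6 fits. They were called on the same libraries, so this is no separate support. WT replicate 1 was the WT library nearest to the KO mean for 454 of the 529 lower genes (85.8%) and for 197 of the 305 higher ones (64.6%). The place of that library is given below for some of the gene groups.

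The tissue label was checked on defining markers. Adipoq (adiponectin) ranged from 1860 to 2590 CPM in WT and from 3360 to 4050 CPM in KO fat, against 2.25 to 27.2 CPM in the hearts, and the heart myosin Myh6 was at 5.69 CPM or less in fat. Summed over 20 markers of white adipocytes, the level was 42100 to 61200 CPM in WT and 62600 to 70100 CPM in KO libraries. Summed over 20 pan-macrophage markers it was 3290 to 8350 CPM in WT and 2660 to 2980 CPM in KO. Markers of mesothelium summed to 950 to 1590 CPM in WT and 1980 to 2510 CPM in KO, with Calb2 at 0. Markers of epididymis and testis, tissues that adjoin this depot in males, summed to 14.1 CPM at most, with Lcn5, Lcn12, Crisp4, Spag11a and Spint4 at 0. Muscle markers summed to 44.8 to 53.3 CPM in WT and 51.1 to 70.5 CPM in KO fat. Thus adipocyte, mesothelial and macrophage markers all moved between the genotypes, and their part in the results below was not tested unless a value is given.

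Enzymes that supply glycerol phosphate for triglyceride moved in opposite directions in KO fat. Of 18 tested genes of triglyceride synthesis and glycerol supply 2 rose, 2 fell and the median was 0.02. Pck1 (ENSMUSG00000027513, chromosome 2, 173153048 to 173159273), phosphoenolpyruvate carboxykinase, which starts glyceroneogenesis in fat, was at 809, 574 and 619 CPM in WT and at 2250, 2090 and 1920 CPM in KO libraries. Every KO library was thus more than 2-fold above every WT library, and the gene rose (1.65 ± 0.17, adjusted p = 0.0154). Mogat1, which acylates monoacylglycerol, went from 9.18, 4 and 5.82 CPM to 18.2, 17.1 and 16.2 CPM (1.44 ± 0.26, adjusted p = 0.0285). On the opposite strand BC035947 overlaps 12.8% of its exon bases.

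The enzymes that make glycerol phosphate from glucose or from free glycerol were lower. Gpd1 (ENSMUSG00000023019, chromosome 15, 99717515 to 99725005) reduces the glycolytic intermediate dihydroxyacetone phosphate, and was at 2000, 1560 and 1720 CPM in WT and at 1230, 995 and 986 CPM in KO libraries (−0.72 ± 0.16, adjusted p = 0.0427). Gk, glycerol kinase (ENSMUSG00000025059, chromosome X, 85701937 to 85776819), was at 27.8, 20.5 and 25.3 CPM in WT and at 11, 12.7 and 12.9 CPM in KO libraries (−1 ± 0.15, adjusted p = 0.0221). For both genes WT replicate 1 was the highest library, farther from KO than the other WT libraries. Gpd2, the mitochondrial partner of Gpd1 that oxidises glycerol phosphate, rose from 36.0, 27.7 and 29.5 CPM to 43.0, 47.2 and 44.3 CPM (0.53 ± 0.12, adjusted p = 0.0463) and was picked out after its value was seen.

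Oxidative pathways gave few calls. Among 29 genes of fatty acid oxidation, Acsm3, a medium-chain acyl-CoA synthetase that overlaps Eri2 on the opposite strand, was the 1 call (2.39 ± 0.45, adjusted p = 0.0296), and the list's median was 0.07. In the tricarboxylic acid cycle 0 of 23 genes were called by edgeR, DESeq2 or limma-voom, with 6 at an unadjusted p under 0.05 in edgeR and a median of 0.12.

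Gys2 and Gyg, which take part in glycogen synthesis, fell. Gys2, a glycogen synthase, went from 73.4, 51.6 and 61.0 CPM to 30, 25 and 25.1 CPM (−1.21 ± 0.15, adjusted p = 0.0185). Gyg, glycogenin, which primes glycogen and was singled out after its value was seen, fell from 143, 132 and 147 CPM to 91.6, 91.1 and 88.4 CPM (−0.64 ± 0.09, adjusted p = 0.0221). Of the 30 genes of glucose uptake and glycolysis edgeR called 3 lower and 1 higher, with a median of −0.21. The balance of calls changed with the fit. DESeq2 and the fit of all 14 libraries each called 5 higher and 4 lower, and without WT replicate 1 these were 8 and 5. Besides Gys2 the genes called lower by edgeR were Hk3, a hexokinase of myeloid cells (22.4, 90.6 and 65.8 CPM in WT, 13.8, 11.8 and 12.4 CPM in KO), and Pkm, pyruvate kinase (−0.55 ± 0.12). The glucose transporter Slc2a3 rose from 6.63, 6.32 and 4.97 CPM to 16, 11 and 10.3 CPM (1.06 ± 0.21, adjusted p = 0.0342). For Hk3, unlike Gys2, WT replicate 1 lay between the other WT libraries and KO.

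Genes of lipolysis and its control rose in part, 4 of 22 with 0 lower (9 and 1 by DESeq2) and a median of 0.37. Ces1d, a carboxylesterase that hydrolyses triglyceride, was at 446, 305 and 383 CPM in WT and at 1190, 1030 and 1050 CPM in KO libraries (1.53 ± 0.17, adjusted p = 0.0154). Its relative Ces1f rose from 29.6, 32.2 and 43.4 CPM to 99.8, 79.0 and 74.9 CPM (1.27 ± 0.17). The carboxylesterases are near-identical copies among which counting can move reads, so these values are uncertain. Adrb3 (ENSMUSG00000031489, chromosome 8, 27225776 to 27250616), the adrenergic receptor of adipocytes, was at 193, 124 and 106 CPM in WT and at 382, 335 and 312 CPM in KO libraries (1.28 ± 0.22, adjusted p = 0.0263), and Ffar4, a receptor for long-chain fatty acids that restrains lipolysis, rose by 0.86 ± 0.18. The main triglyceride lipases were not called: Pnpla2 was at 1540, 1290 and 1390 CPM in WT against 2130, 1820 and 1980 CPM in KO libraries (0.49 ± 0.15, adjusted p = 0.0879), and Lipe had an adjusted p of 0.163.

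Downstream of the receptor, Pde1a, which degrades cyclic nucleotides, rose from 23.3, 15.8 and 18.6 CPM to 44.6, 48.9 and 50.3 CPM (1.32 ± 0.15, adjusted p = 0.0154). Rgs2, which dampens G protein signals, fell from 29.1, 54.7 and 45.7 CPM to 22.9, 18.8 and 14.8 CPM (−1.20 ± 0.25). These and Adrb3 were the 3 calls among 24 adrenergic and cAMP genes. Irs1 (ENSMUSG00000055980, chromosome 1, 82233101 to 82291416), which couples the insulin receptor to its kinases, was the 1 call among 23 insulin signalling genes, at 27.4, 27.5 and 27.0 CPM in WT and 44.2, 49.5 and 64.3 CPM in KO libraries (0.95 ± 0.15, adjusted p = 0.0236). A predicted gene on the opposite strand overlaps 30.9% of its exons. Of the insulin signalling list DESeq2 called 2 higher and 0 lower, and the fit of all 14 libraries 4 and 1.

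Genes of heat-producing and beige fat were called only on the lower side. Of 18 tested members 4 fell and 0 rose, 14 had negative values, and the median was −0.42. Otop1 (ENSMUSG00000051596, chromosome 5, 38275972 to 38304217), a proton channel of brown fat, was at 24.3, 14.7 and 21.1 CPM in WT and at 5.81, 6.55 and 5.41 CPM in KO libraries (−1.76 ± 0.20, adjusted p = 0.0156). Elovl3, which elongates very long-chain fatty acids, was at 2.42, 1.38 and 1.27 CPM in WT and at 0.387 CPM or less in KO (−3.06 ± 0.56, adjusted p = 0.0285). The creatine transporter Slc6a8 (−1.73 ± 0.38) and Ucp2 (−1.25 ± 0.20) also fell, and for both WT replicate 1 stood nearest to KO. Ucp2 and Slc6a8 are not specific to beige adipocytes, and Ucp1, the defining gene of heat production, had too few reads to be tested. The mean log2 level of the 18 genes was 3.72, 3.80 and 3.70 in WT and 3.19, 3.17 and 3.11 in KO libraries. By this mean WT replicate 1 stood with the other WT libraries. By the summed level it lay between them and KO, at 892.4, 1423 and 1206 CPM in WT and 618.2, 563.1 and 557.3 CPM in KO.

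Tph2 (ENSMUSG00000006764, chromosome 10, 115078641 to 115185022), best known as the neuronal tryptophan hydroxylase of serotonin synthesis, fell steeply. It was at 201, 91.2 and 128 CPM in WT and at 19.6, 22.5 and 24.3 CPM in KO libraries (−2.66 ± 0.27, adjusted p = 0.0154). Chchd10, a protein of mitochondrial cristae, fell evenly, from 19.5, 18.4 and 18 CPM to 8.85, 7.58 and 6.96 CPM (−1.26 ± 0.14, adjusted p = 0.0154). The respiratory chain itself held 0 calls by edgeR among 36 subunits of complex I, 23 of complexes III and IV and 17 of ATP synthase, with 5, 2 and 0 at an unadjusted p under 0.05. DESeq2 called 0, 1 and 0 of them and limma-voom 0 in each.

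**Figure D2:**
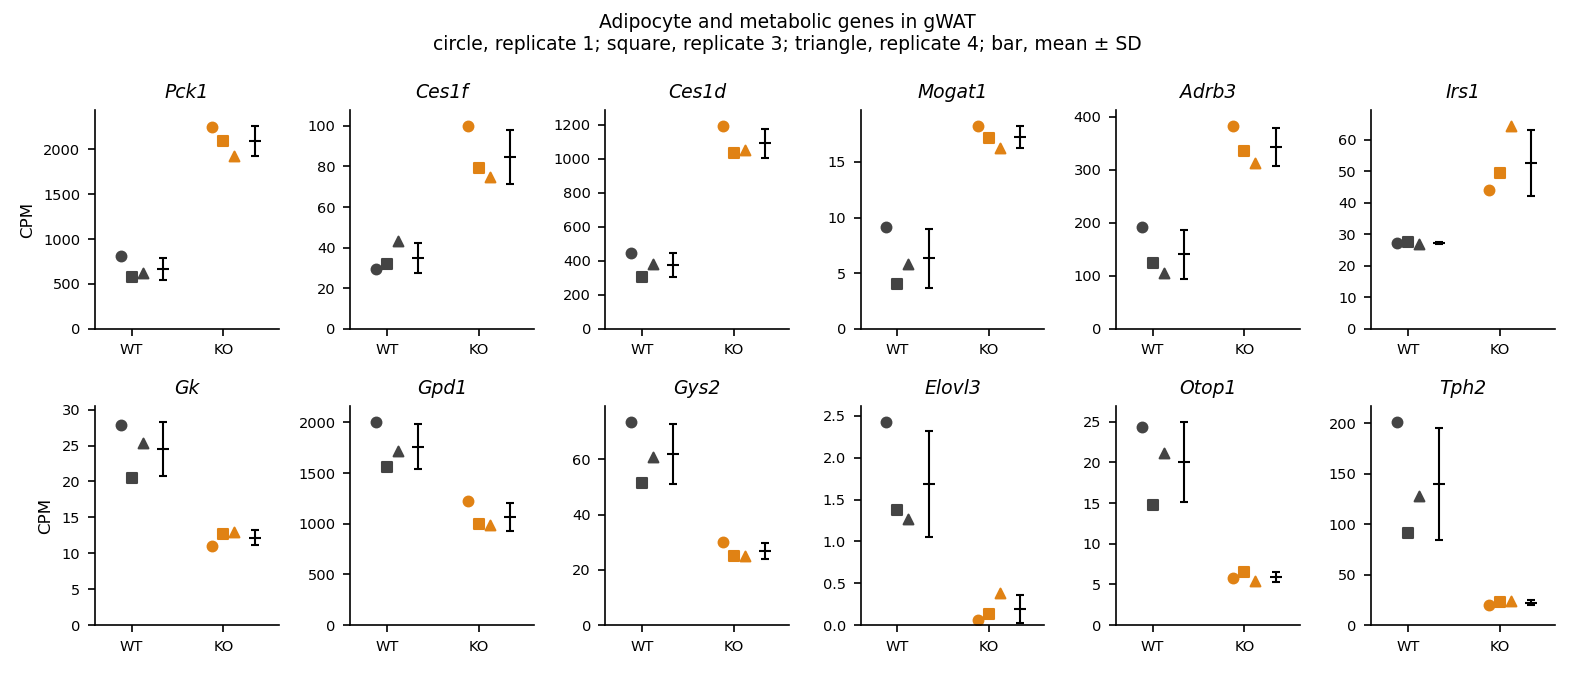
CPM (y, linear from 0) of 12 metabolic genes in each gWAT library, with WT in grey and KO in orange, symbols for replicates 1, 3 and 4, and bars for mean ± SD (n = 3). Pck1, Ces1f, Ces1d, Mogat1, Adrb3 and Irs1 lie higher and Gk, Gpd1, Gys2, Elovl3, Otop1 and Tph2 lower in every KO library than in any WT library.

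White adipocyte identity genes rose in part: 6 of 20 were called higher and 0 lower, with a median of 0.45 (0.27 without WT replicate 3 and 0.57 without WT replicate 1). The 6 were Agt, Cfd, Nnat, Retn, Sncg and Car3. Cfd, the complement protease adipsin secreted by adipocytes, was at 506, 213 and 266 CPM in WT and at 1770, 1340 and 1510 CPM in KO libraries (2.23 ± 0.31, adjusted p = 0.0216). Leptin, whose transcript grows with adipocyte size, was not called: Lep was at 6450, 3600 and 5370 CPM in WT and 2830, 4350 and 4080 CPM in KO libraries, with overlapping groups (−0.45 ± 0.27, adjusted p = 0.349). Pparg, the master factor of adipocytes, was not called either (0.16 ± 0.16, adjusted p = 0.596). Among 29 adipocyte transcription factors 3 rose, namely Mycl (6.97, 3.13 and 4 CPM in WT, 22.9, 18.4 and 25.4 CPM in KO), Ebf2 (0.67 ± 0.11) and Ebf1 (0.69 ± 0.12), of which the Ebf factors specify adipocyte precursors.

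Against 5.49% of all tested genes, 5.26% were called in fatty acid synthesis, 11.8% in fatty acid uptake and binding and 7.69% among droplet proteins. Of 19 genes of fatty acid synthesis edgeR called only Elovl3, and the list had a median of −0.10. DESeq2 called 1 of the 19 higher and 4 lower. Fasn, fatty acid synthase, was at 3530, 2680 and 2510 CPM in WT and at 2110, 1680 and 1870 CPM in KO libraries (−0.62 ± 0.19, adjusted p = 0.0900), while the desaturase Scd1 had a positive value (0.87 ± 0.30, adjusted p = 0.126). Neither passed the test. Of fatty acid-binding proteins, Fabp5 fell evenly, from 188, 195 and 194 CPM to 112, 84.9 and 111 CPM (−0.90 ± 0.13, adjusted p = 0.0216), and Fabp7 fell from a low level (−2.67 ± 0.45). The droplet coat protein Plin2 fell from 905, 1640 and 1430 CPM to 488, 457 and 483 CPM (−1.48 ± 0.22, adjusted p = 0.0221), the 1 call among 13 droplet proteins. For Plin2 WT replicate 1 was the WT library nearest to KO. Plin2 and Fabp5 also belong to the list of lipid-associated macrophages, of which 15 of 22 genes fell, and the part of macrophages in their values was not tested. Catabolism of branched-chain amino acids, an adipocyte pathway, had 2 of 21 genes called higher (Ppm1k and Ivd), 20 positive values and a median of 0.45.

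Genes of sterol synthesis fell along much of the pathway. Of 23 tested genes 9 fell, 1 rose, 22 had negative values, and the median was −0.61, ranging from −0.64 to −0.54 with 1 library left out. The lower genes included the enzymes Mvd, Sqle, Lss, Cyp51, Msmo1, Nsdhl and Dhcr7, and Insig1, the sensor that holds the pathway's transcription factors in the endoplasmic reticulum. Lss, lanosterol synthase, was at 97.1, 86.1 and 85.3 CPM in WT and at 48.7, 46.8 and 44.5 CPM in KO libraries (−0.94 ± 0.10, adjusted p = 0.0154). Dhcr7 went from 52.8, 46.1 and 43.2 CPM to 25.1, 22.1 and 22.1 CPM (−1.04 ± 0.12), and Insig1 from 417, 281 and 284 CPM to 175, 193 and 151 CPM (−0.92 ± 0.18). In none of these 3 genes was WT replicate 1 nearer to KO than the other WT libraries, and in Cyp51 and Nsdhl it was also the highest library. In Mvd, Sqle and Msmo1, in contrast, WT replicate 1 was the WT library nearest to KO. Sqle was at 16.1, 21.6 and 16.9 CPM and Msmo1 at 39.8, 47.4 and 54.1 CPM in WT libraries. The sterol genes were thus mixed in the place of this library. Fdft1, squalene synthase, was the exception that rose (0.44 ± 0.09, adjusted p = 0.0351), and 18.3% of its exons are overlapped by Ctsb on the opposite strand.

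Sterol genes are known for promoters in which NF-Y, a factor that binds CCAAT, works beside the sterol-regulatory factors. The motif CCAAT, read on either strand, was found in the promoter window of all 16 sterol genes with an entry (RefSeq, GRCm38.p6; 250 bases before to 50 after the start), 7 of them called lower. The same 5 letters occurred in 41.1% of 27025 promoters and in 42.6% of those of tested genes, and 13 motifs were searched in all. CCAAT was also in 31 of 38 promoters of cell division genes and in 50% of those of 410 lower genes. The sterol-regulatory motif TCACNCCAC, read on both strands, was in 1 of the 16 sterol promoters and in 0 of the 7 lower ones, against 1.37% of tested genes. A match is a description of the letters and not a site of binding, and no match says only that the letters are not in this window. For the 7 lower genes a stretch of 100 bases is shown 5′ to 3′ on the gene's strand with CCAAT, or ATTGG where it lies on the other strand, in capitals. It ends at the base before the start, except for Insig1, where it covers bases 236 to 137 upstream. The Mvd stretch is chr8:122443423-122443522 on the minus strand, Lss chr10:76531505-76531604 on the plus strand and Cyp51 chr5:4104698-4104797 on the minus strand. Msmo1 is chr8:64733579-64733678 on the minus strand, Nsdhl chrX:72918421-72918520, Dhcr7 chr7:143830114-143830213 and Insig1 chr5:28071176-28071275, these 3 on the plus strand.
Mvd: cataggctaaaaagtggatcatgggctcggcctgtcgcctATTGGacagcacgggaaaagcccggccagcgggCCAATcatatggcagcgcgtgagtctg
Lss: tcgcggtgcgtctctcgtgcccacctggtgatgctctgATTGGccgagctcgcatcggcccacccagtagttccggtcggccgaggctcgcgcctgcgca
Cyp51: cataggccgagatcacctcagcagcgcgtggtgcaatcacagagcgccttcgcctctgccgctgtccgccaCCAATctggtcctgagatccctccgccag
Msmo1: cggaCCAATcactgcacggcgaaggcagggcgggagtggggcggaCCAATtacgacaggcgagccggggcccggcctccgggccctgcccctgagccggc
Nsdhl: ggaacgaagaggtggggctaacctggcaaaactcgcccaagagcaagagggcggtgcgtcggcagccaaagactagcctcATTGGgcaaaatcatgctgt
Dhcr7: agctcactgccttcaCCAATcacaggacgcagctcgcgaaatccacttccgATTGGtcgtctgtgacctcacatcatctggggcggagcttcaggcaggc
Insig1: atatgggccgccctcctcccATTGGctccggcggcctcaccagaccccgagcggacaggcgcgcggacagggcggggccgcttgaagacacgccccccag

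Lysosomal genes fell in part. Of 47 hydrolases and their activators 13 fell and 0 rose, against 3.48% of all tested genes called lower. KO libraries were all below WT for 28 of the 47, against 14.5% of all tested genes. The median was −0.41 (−0.49 without WT replicate 1, −0.32 without WT replicate 3). Ctsl (ENSMUSG00000021477, chromosome 13, 64359337 to 64370890), a cathepsin, was at 1290, 1990 and 1840 CPM in WT and at 757, 803 and 819 CPM in KO libraries (−1.11 ± 0.18, adjusted p = 0.0253). Lipa, the acid lipase that frees cholesterol and fatty acids from engulfed lipid, went from 288, 731 and 586 CPM to 149, 169 and 168 CPM (−1.72 ± 0.30), and Psap, the precursor of saposins, from 2990, 5430 and 4440 CPM to 2250, 2020 and 2150 CPM (−1 ± 0.23). Galc and Galns, which degrade a galactolipid and sulphated glycans, fell by less (−0.79 ± 0.14 and −0.70 ± 0.13). Cstb, an inhibitor of cathepsins in the cytosol, fell with them, from 173, 223 and 225 CPM to 102, 89.8 and 100 CPM (−1.09 ± 0.13, adjusted p = 0.0174).

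The vacuolar proton pump that acidifies lysosomes also fell, 7 of 21 genes with 0 higher (8 and 1 by DESeq2) and a median of −0.35. Atp6v0a1 (ENSMUSG00000019302, chromosome 11, 101009452 to 101063719), a subunit of the membrane sector, was at 372, 565 and 512 CPM in WT and at 233, 234 and 229 CPM in KO libraries (−1.06 ± 0.16, adjusted p = 0.0236). The catalytic subunit Atp6v1a (−0.89 ± 0.16) and the subunit Atp6v1b2 (−1.03 ± 0.17) fell by similar amounts. The subunits Atp6v0d2 (−2.96 ± 0.43) and Tcirg1 (−1.81 ± 0.39), which are high in macrophages and osteoclasts, fell by more. Among 32 genes of the lysosomal membrane and the TFEB family of lysosomal regulators 5 fell, Slc37a2, Gpnmb, Cd68, Slc11a1 and Rragd, with a median of −0.53. Tfeb itself was not called, at 14.8, 26.6 and 20.3 CPM in WT and 13.5, 12.7 and 11.6 CPM in KO libraries (−0.71 ± 0.21, adjusted p = 0.0848).

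The mean log2 level of the hydrolases was 6.98, 7.47 and 7.30 in WT and 6.73, 6.78 and 6.76 in KO libraries, so that WT replicate 1 lay nearest to KO. Pan-macrophage markers behaved likewise: 7 of 20 fell and 0 rose, with a median of −1.01, and Cd68 was at 177, 609 and 424 CPM in WT against 93.9, 102 and 106 CPM in KO libraries. The part of macrophage number in the lysosomal values was not tested. For the sterol list as a whole the order of the libraries was different, with mean log2 levels of 5.35, 5.29 and 5.29 in WT and 4.77, 4.81 and 4.72 in KO. Single sterol genes differed in this, as given above.

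Factors of the TFEB family are known to bind the palindrome CACGTG in lysosomal promoters. These letters occurred in the promoter window of 11 of 37 hydrolase genes with an entry, 3 of the 12 lower ones, and of 4 of 15 pump genes, 2 of the 4 lower ones. They were in 8.09% of all promoters, 11.4% of those of tested genes and 13.9% of those of 410 lower genes. The palindrome reads the same on both strands. For 5 lower genes with a match, 100 bases are shown with it in capitals, all on the minus strand. They are Ctsd, chr7:142387846-142387945, Ctsl, chr13:64370671-64370770, and Lgmn, chr12:102439093-102439192. The pump genes are Atp6v0b, chr4:117887330-117887429, and Atp6v1a, chr16:44139311-44139410.
Ctsd: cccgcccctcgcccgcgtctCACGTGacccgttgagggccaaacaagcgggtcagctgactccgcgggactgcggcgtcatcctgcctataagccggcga
Ctsl: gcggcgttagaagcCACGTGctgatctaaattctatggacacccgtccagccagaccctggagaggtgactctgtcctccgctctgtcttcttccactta
Lgmn: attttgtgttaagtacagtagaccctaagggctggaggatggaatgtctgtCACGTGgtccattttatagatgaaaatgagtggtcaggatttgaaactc
Atp6v0b: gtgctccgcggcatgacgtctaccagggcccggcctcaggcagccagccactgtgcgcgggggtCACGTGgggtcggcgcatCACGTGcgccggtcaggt
Atp6v1a: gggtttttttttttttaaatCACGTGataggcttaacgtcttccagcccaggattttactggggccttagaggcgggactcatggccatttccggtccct

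**Figure D3:**
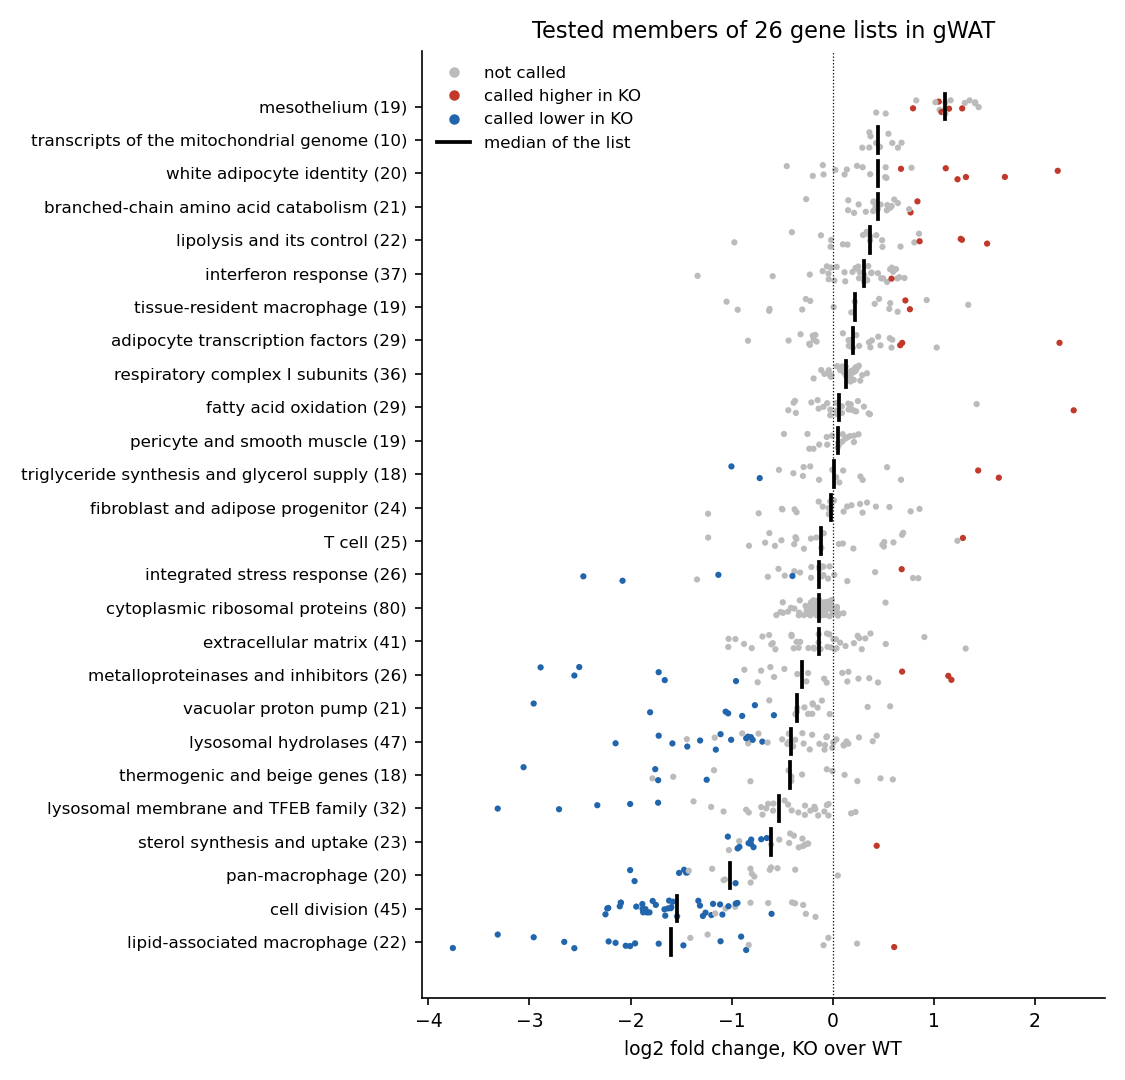
Log2 fold change of KO over WT (x) of every tested member of 26 gene lists (y, number tested in parentheses), with red points called higher, blue points called lower, grey points not called and the black bar at the list's median. Medians run from 1.12 for mesothelium to −1.60 for lipid-associated macrophages, and the list of triglyceride synthesis and glycerol supply has calls on both sides of 0.

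The lists of lipid-associated macrophages and of cell division, well known from obese fat, held the largest shares of lower genes, 15 of 22 and 35 of 45. Of the macrophage list Apoe, an apolipoprotein that adipocytes also make, was the 1 gene that rose, from 1730, 1810 and 1780 CPM to 2480, 2940 and 2700 CPM (0.61 ± 0.14). The resident macrophage list had 2 of 19 higher (Gas6 and Lyve1), 0 lower and a median of 0.22, and its summed level was 1510 to 1850 CPM in WT and 1580 to 1830 CPM in KO libraries. DESeq2 called 3 of its genes higher and 3 lower, the fit of all 14 libraries 3 and 2, and without WT replicate 1 these were 6 and 4. Of 33 kinesins 9 were lower and Kif13a was higher. The lower ones included the mitotic motors Kif20a (−1.66 ± 0.23), Kif15 and Kif2c, and Kif20a, Kif11 and Kif23 also count among the cell division genes.

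**Figure D4:**
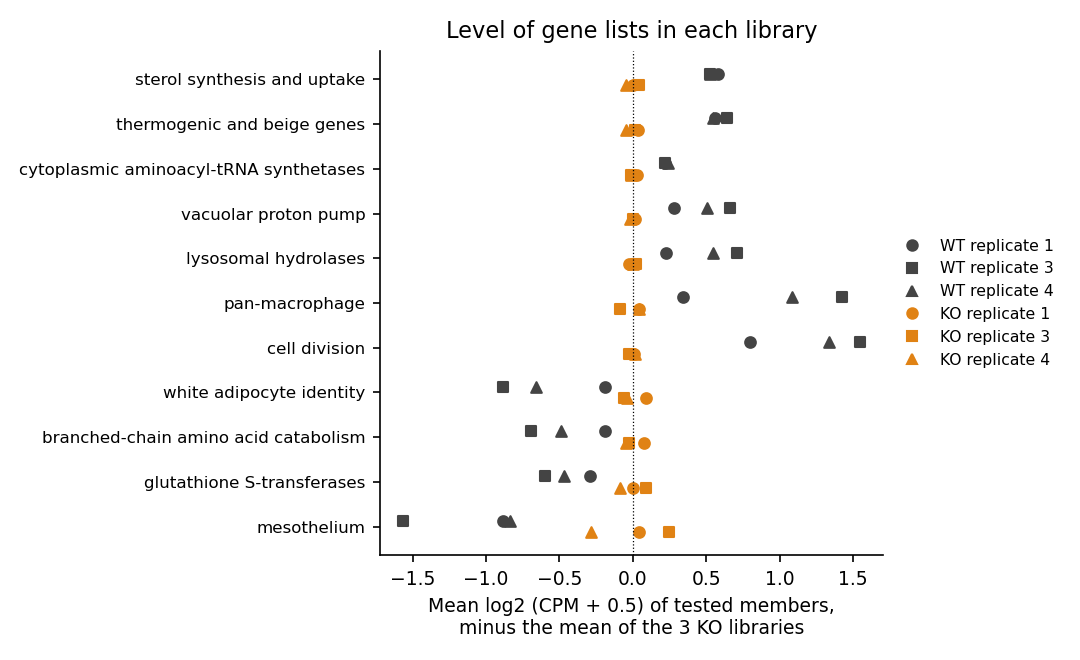
Mean log2 (CPM + 0.5) of the tested members of 11 gene lists in each library (x), minus the mean of the 3 KO libraries, with WT in grey and KO in orange and symbols for replicates 1, 3 and 4. WT replicate 1 lies with the other WT libraries on the sterol and thermogenic lists and between them and KO on the macrophage, lysosomal and white adipocyte lists.

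Genes of heme breakdown and iron transport fell in part, Hmox1 and Slc11a2 evenly across libraries. Hmox1 (ENSMUSG00000005413, chromosome 8, 75093621 to 75100589), heme oxygenase, which opens the heme ring and frees its iron, was at 120, 129 and 125 CPM in WT and at 56.1, 48.8 and 57.2 CPM in KO libraries. After Fhl2 it had the smallest p of the lower genes (−1.20 ± 0.10, adjusted p = 0.0101). Blvra, biliverdin reductase, the next enzyme, fell from 64.4, 84.9 and 81.6 CPM to 48.7, 51.2 and 53.1 CPM (−0.59 ± 0.12, adjusted p = 0.0362). The iron importers Slc11a2 (37.3, 36.8 and 38.8 CPM in WT, 27.8, 26.4 and 26.5 CPM in KO) and Slc11a1, a protein of phagosomes, fell, as did Ftl1, ferritin light chain (−0.99 ± 0.22). For Blvra, Slc11a1 (50.4, 151 and 117 CPM in WT, 35.4, 29.4 and 31.5 CPM in KO) and Ftl1 (615, 1130 and 998 CPM in WT, 438, 494 and 449 CPM in KO), WT replicate 1 was nearest to KO. Ftl1 shares 34.6% of its exon bases with annotated neighbours. The ferroxidase ceruloplasmin, Cp, rose from 86.4, 90.6 and 97.0 CPM to 131, 140 and 144 CPM (0.60 ± 0.10, adjusted p = 0.0253). These 6 were the calls among 30 iron and heme genes, whose median was −0.04. The ferritin heavy chain Fth1 (−0.07 ± 0.15, adjusted p = 0.815) and the transferrin receptor Tfrc (0.11 ± 0.12, adjusted p = 0.626) were not called.

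Hmox1 is also a target of Nrf2, the factor of oxidant defence, and the 33 genes of Nrf2 and glutathione split, with 4 higher, 2 lower and a median of 0.04. Besides Hmox1 the lower one was Srxn1, which repairs peroxiredoxins, from 51.7, 67.9 and 71.7 CPM to 38.4, 41.3 and 40.1 CPM (−0.68 ± 0.13). The higher ones conjugate or use glutathione. Gstt1 (ENSMUSG00000001663, chromosome 10, 75783813 to 75798584) was at 23.4, 21.1 and 27.2 CPM in WT and at 44.6, 55.0 and 48.7 CPM in KO libraries (1.05 ± 0.13, adjusted p = 0.0185). Gsta3 rose from 57.8, 31.8 and 42.0 CPM to 133, 124 and 88.0 CPM (1.39 ± 0.23), and Gsta4 and the secreted peroxidase Gpx3 rose by 1.47 ± 0.35 and 0.91 ± 0.19. Reads of the alpha-class transferases may be shared among close copies.

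Mthfd2 (ENSMUSG00000005667, chromosome 6, 83305691 to 83325908), a mitochondrial folate enzyme of growing cells, was at 16.8, 19.7 and 19.1 CPM in WT and at 9.05, 8.86 and 8.37 CPM in KO libraries (−1.08 ± 0.13, adjusted p = 0.0156), the 1 call among 20 folate and serine genes. It is a target of the integrated stress response, of whose 26 genes 4 fell and 1 rose, with a median of −0.13. Slc7a5, which imports large neutral amino acids, went from 10.8, 12.6 and 13.3 CPM to 5.28, 6.29 and 5.15 CPM (−1.13 ± 0.16, adjusted p = 0.0216). The stress hormone Gdf15 fell from 2.42, 5.19 and 2.55 CPM to 0.924, 0.450 and 0.451 CPM (−2.47 ± 0.45), and the factor Atf3 fell with WT replicate 1 nearest to KO (39.0, 156 and 101 CPM in WT, 24.0, 18.7 and 27.4 CPM in KO). Asns, asparagine synthetase and a target of the same response, went the other way, from 40.5, 34.3 and 36.1 CPM to 67.5, 55.2 and 55.7 CPM (0.68 ± 0.12, adjusted p = 0.0271). Atf4, the response's main factor, was not called (−0.47 ± 0.13, adjusted p = 0.0748).

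The list of 28 amino acid transporters had 2 higher and 4 lower, Slc7a5 among the latter. Slc1a3, a glutamate transporter, rose from 112, 71.1 and 99.1 CPM to 203, 186 and 231 CPM (1.13 ± 0.18, adjusted p = 0.0236), and Slc6a6, the taurine transporter, fell from 229, 484 and 379 CPM to 120, 145 and 140 CPM (−1.43 ± 0.25, adjusted p = 0.0268). Among chaperones, Creld2 was the 1 edgeR call of 24 genes of the endoplasmic reticulum (−0.56 ± 0.12) and Hsph1 the 1 of 22 heat shock genes (85.9, 82.4 and 87.1 CPM in WT, 56.9, 58.6 and 65.0 CPM in KO). Of the 24 genes of the endoplasmic reticulum 19 had negative values. DESeq2 called 6 of them lower and 0 higher, and the fit of all 14 libraries 5 and 0. Of 31 sphingolipid genes, Smpd3, a neutral sphingomyelinase, rose evenly from 45.8, 42.8 and 40.9 CPM to 72.9, 75.1 and 81.4 CPM (0.82 ± 0.10, adjusted p = 0.0157), whereas Galc and the ceramidase Acer3 fell.

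**Figure D5:**
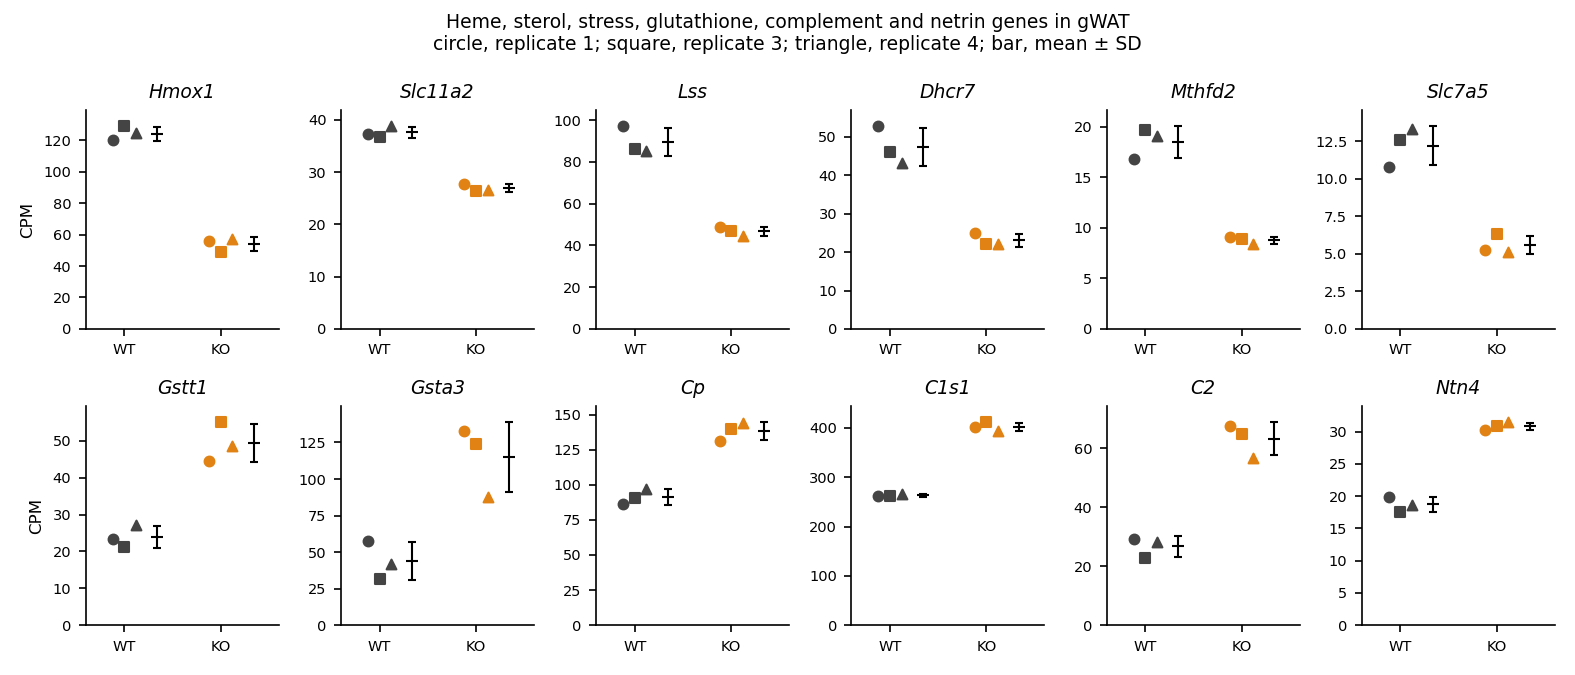
CPM (y, linear from 0) of 12 genes of heme, sterol, stress, glutathione, complement and netrin biology in each gWAT library, with WT in grey and KO in orange, symbols for replicates 1, 3 and 4, and bars for mean ± SD (n = 3). Hmox1, Slc11a2, Lss, Dhcr7, Mthfd2 and Slc7a5 are lower and Gstt1, Gsta3, Cp, C1s1, C2 and Ntn4 higher in all 3 KO libraries.

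Genes of mesothelium, the lining of the abdominal cavity, were called only on the higher side. All 19 tested had positive values, 5 were called higher, and the median was 1.12 (0.89 without WT replicate 3, 1.31 without WT replicate 1). The keratin Krt19 was at 17.3, 12.6 and 19.8 CPM in WT and at 42.4, 49.2 and 29.4 CPM in KO libraries (1.28 ± 0.22, adjusted p = 0.0268), and Krt7, Krt8, Efemp1 and Msln were the other calls. Of 24 fibroblast and progenitor genes, 0 were called by edgeR (8 at an unadjusted p under 0.05), 4 by DESeq2 and 0 by limma-voom, and their median was −0.02. Of 19 pericyte and smooth muscle genes 0 were called by any of these tools (1 at an unadjusted p under 0.05 in edgeR). Of 25 endothelial genes edgeR called only Reln and Lyve1, both known from lymphatic vessels, which rose by 1.41 ± 0.31 and 0.77 ± 0.17. Reln rose from a low level, and Lyve1 is also on the resident macrophage list given above. Mmrn1 and Ccl21a, chosen for the same endothelial list, were not tested. Whether lymphatic vessels changed was not tested. Scn7a, a sodium channel of nerve and glia, was the 1 call of 11 nerve genes (177, 106 and 145 CPM in WT, 219, 308 and 305 CPM in KO).

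Matrix genes gave 0 calls of 41 by edgeR (15 at an unadjusted p under 0.05, 0 by limma-voom), while DESeq2 called 2 higher and 9 lower. The median was −0.14. Enzymes that cut matrix and their inhibitors gave 3 higher and 6 lower calls of 26. Timp4 (ENSMUSG00000030317, chromosome 6, 115241892 to 115252205), an inhibitor made by adipocytes, was at 151, 86.8 and 113 CPM in WT and at 257, 279 and 241 CPM in KO libraries (1.15 ± 0.19, adjusted p = 0.0258). Reck, a membrane-bound inhibitor, rose by 0.69 ± 0.13. The remaining higher call was a protease, Mmp9, at 1.66, 2.31 and 1.58 CPM in WT and 4.03, 4.05 and 4.51 CPM in KO libraries (1.18 ± 0.24). The inhibitor Timp1, in contrast, fell (−1.72 ± 0.34), with the proteases Mmp3, Mmp12, Mmp13, Adam8 and Adam12. Mmp12, the elastase of macrophages, was at 158, 959 and 594 CPM in WT and at 94.1, 92.1 and 105 CPM in KO libraries (−2.56 ± 0.54), so WT replicate 1 was much nearer to KO than to the other WT libraries. Mmp3 showed less of this spread (6.56, 10.9 and 10.2 CPM in WT, 2.58, 2.95 and 3.22 CPM in KO).

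In the complement system 4 of 27 genes were higher and 3 lower. C2 (ENSMUSG00000024371, chromosome 17, 34862604 to 34898265), of the classical pathway, was at 29.3, 22.8 and 28.1 CPM in WT and at 67.5, 64.9 and 56.8 CPM in KO libraries (1.24 ± 0.13, adjusted p = 0.0154), with 46.9% of its exon bases shared with annotated neighbours. C1s1, a protease of the first component, rose evenly from 262, 262 and 266 CPM to 402, 411 and 393 CPM (0.61 ± 0.10, adjusted p = 0.0253), and C1ra by 0.55 ± 0.10. The anaphylatoxin receptors C5ar1 (59.4, 142 and 122 CPM in WT, 30.2, 32.1 and 35.3 CPM in KO) and C3ar1 (−1.91 ± 0.37) fell, as did Itgax, a chain of a complement receptor. The central component C3 was not called (0.21 ± 0.16, adjusted p = 0.489). Cfd, given above, was the remaining higher gene. In the fit of all 14 libraries 0 complement genes were called higher and 7 lower.

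Among 18 B cell genes Ebf1, given above with adipocyte factors, was higher and Sdc1 and Blnk were lower. The B cell list's median of 0.55 was −0.03 without KO replicate 3. Of 37 interferon-response genes 29 had positive values and Gbp7 was called (0.58 ± 0.12), with a median of 0.31 that was 0.14 without KO replicate 1. The paired chains H2-DMb1 (76.0, 92.9 and 93.7 CPM in WT, 54.6, 44.1 and 47.2 CPM in KO) and H2-DMb2 (1.93, 2.06 and 2.00 CPM in WT, 4.56, 4.37 and 3.41 CPM in KO) went in opposite directions. They are close copies, so counting may move reads between them. Of 19 dendritic cell genes Mgl2 and Naaa rose (0.79 ± 0.13 and 0.59 ± 0.10) and Irf8 and Sirpa fell (−0.85 ± 0.17 and −1.47 ± 0.31).

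Prtn3, a neutrophil serine protease, rose from 1.24, 0.938 and 1.21 CPM to 3.10, 4.11 and 4.12 CPM (1.74 ± 0.26). It overlaps Plppr3 on the opposite strand, and Plppr3 was also called higher (0.99 ± 0.19), so without a stated strand setting their reads cannot be told apart. Ly6g, the defining neutrophil marker, was at 0, and the summed neutrophil markers were 29.6 to 41.7 CPM in WT and 22.5 to 23.9 CPM in KO libraries. Of 34 cytokine and chemokine genes Ccl24, a chemokine for eosinophils, rose (6.56, 5.82 and 4.85 CPM in WT, 11.4, 9.95 and 15.1 CPM in KO), and Il1rn and Ccl9 fell. The hematopoietic prostaglandin D synthase Hpgds fell from 23.9, 94.0 and 72.6 CPM to 10.5, 13.6 and 11.2 CPM (−2.43 ± 0.44), the 1 edgeR call of 36 lipid mediator genes. DESeq2 called 2 of the 36 higher and 5 lower.

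Of 45 growth factor ligands and receptors edgeR called 4 higher and 0 lower, with a median of 0.27. DESeq2 and the fit of all 14 libraries each called 8 higher and 2 lower, and without WT replicate 1 these were 15 and 5. Met (ENSMUSG00000009376, chromosome 6, 17463800 to 17573980), the receptor of hepatocyte growth factor, was at 42.3, 25.6 and 33.9 CPM in WT and at 76.3, 67.2 and 69.1 CPM in KO libraries (1.06 ± 0.17, adjusted p = 0.0253). Fgf2 rose from 38.6, 23.4 and 29.3 CPM to 53.6, 71.0 and 69.4 CPM (1.09 ± 0.19), Vegfa, the main angiogenic factor, from 130, 106 and 102 CPM to 172, 202 and 265 CPM (0.92 ± 0.17), and Fgfr2 by 0.69 ± 0.16. Wnt genes gave 0 calls of 34 by edgeR (10 at an unadjusted p under 0.05), 2 higher by DESeq2 and 0 by limma-voom. Their median was 0.32 and fell to 0.16 without KO replicate 3. The latent TGF-beta binding proteins moved in opposite directions: Ltbp4 rose (175, 220 and 182 CPM in WT, 290, 261 and 290 CPM in KO), and Ltbp2 fell (46.8, 38.5 and 40.4 CPM in WT, 24.0, 24.5 and 24.9 CPM in KO). They were the 2 calls of 45 TGF-beta and BMP genes.

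Of 34 guidance cues of axons and vessels and their receptors, 4 rose and 3 fell. The netrins Ntn4 (ENSMUSG00000020019, chromosome 10, 93640681 to 93747207; 19.8, 17.6 and 18.6 CPM in WT, 30.3, 30.8 and 31.4 CPM in KO) and Ntn1 (0.72 ± 0.12) rose, as did Slit3 (0.87 ± 0.16) and Sema3f (0.52 ± 0.11). Sema4d, a semaphorin of lymphoid and myeloid cells, and the receptor Plxnc1 fell (−2.27 ± 0.49 and −1 ± 0.22), and so did the pentraxin Nptx1 from a low level. Ntn4 had an adjusted p of 0.0216 with KO libraries close to each other (0.72 ± 0.10). For Sema4d the WT libraries were at 16.4, 83.0 and 53.7 CPM, with replicate 1 close to the 11.2, 11.3 and 9.28 CPM of KO.

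Among 34 nuclear receptors 0 fell (1 in the fit of all 14 libraries), the median was 0.22, and those that rose included Thra, a thyroid hormone receptor, at 53.8, 52.2 and 53.2 CPM in WT and 73.9, 81.2 and 71.8 CPM in KO libraries (0.51 ± 0.09), the mineralocorticoid receptor Nr3c2 (0.72 ± 0.15), and the clock repressor Nr1d1 (97.3, 110 and 100 CPM in WT, 196, 189 and 130 CPM in KO). The 3′ ends of Thra and Nr1d1 overlap on opposite strands, over 8.55% of the exon bases of Nr1d1. Nfil3, another repressor among the 22 genes of the circadian clock, fell (−0.73 ± 0.16). Sult1e1, which inactivates estrogens, rose from 11.3, 7.13 and 10.8 CPM to 23.2, 21.1 and 21.3 CPM (1.17 ± 0.18), and Aldh1a2, which makes retinoic acid, from 20.6, 19.4 and 19 CPM to 31.1, 30.2 and 30.8 CPM (0.64 ± 0.10, both at an adjusted p of 0.0236).

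Among 31 LIM-domain relatives of Fhl2, Prickle1 and Pdlim3 rose (0.87 ± 0.17 and 1.31 ± 0.28) and Fhl3 fell. Fhl3, of the same subfamily as Fhl2, was at 6.70, 18.5 and 16.1 CPM in WT and at 4.03, 3.92 and 3.87 CPM in KO libraries (−1.81 ± 0.35, adjusted p = 0.0306). Of 19 targets of SRF and YAP, factors to which FHL2 is known to bind or relate, Amotl2 was the 1 call (159, 151 and 158 CPM in WT, 204, 243 and 235 CPM in KO, 0.54 ± 0.11). Integrins, whose tails FHL2 binds, gave 3 calls of 25, with Itga3 higher (0.66 ± 0.15) and the leukocyte chains Itgad and Itgax lower.

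Within 20 Mb of Fhl2 on chromosome 1, a stretch that can still carry DNA of the strain in which the gene was targeted, 7 of 193 tested genes were called (3.63%, against 5.49% of all genes). Aff3, 4.46 Mb away, was at 5.59, 5.76 and 5.94 CPM in WT and at 12.5, 15.2 and 15.6 CPM in KO libraries (1.32 ± 0.15, adjusted p = 0.0154), with even values within each group. Gm8292 was also higher, and Rnf149, Creg2, Hs6st1 and Cdk15 were lower. For these 7 genes an effect of Fhl2 loss and an effect of such DNA cannot be told apart.

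The general machinery of the cell gave few or no calls. Among 80 cytoplasmic ribosomal proteins edgeR and limma-voom called 0 (6 at an unadjusted p under 0.05 in edgeR) and DESeq2 called 1, with a median of −0.14 and 71 negative values. Among 76 mitochondrial ribosomal proteins and 37 proteasome subunits all 3 tools called 0 (0 and 2 at an unadjusted p under 0.05 in edgeR). Of 339 tested Zfp zinc finger genes 5 were higher and 2 lower, and 249 had positive values with a median of 0.15. Zfp809, a repressor of retroviral DNA, was the called Zfp gene with the smallest p, from 24.1, 22 and 25.8 CPM to 36.9, 39.2 and 40.1 CPM (0.69 ± 0.11, adjusted p = 0.0236). Transcripts of the mitochondrial genome gave 0 calls of 10 (4 at an unadjusted p under 0.05 in edgeR, 2 called by DESeq2, 0 by limma-voom), with a median of 0.45 (0.28 when WT replicate 3 was left out, 0.76 for WT replicate 1).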

How the data were processed

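mRNA was measured in the 6 gWAT libraries and in 8 heart libraries used here only for the marker check and 1 alternative fit. Per the labels, frozen tissue was extracted with Trizol, and the kit for the libraries was Kapa mRNA HyperPrep. The deposited values are the authors' raw read counts per Ensembl gene, whole numbers with no normalization, so the depth behind a gene is its read number. The submitters' processing notes list HISAT2 2.1.0, HTSeq 0.11.0, Trimmomatic 0.32, Picard, FastQC, limma and mm10. Not given in the sources used here are each tool's role, the annotation release and the strand setting, so values of overlapping, antisense and near-identical genes (Orm, Ces1, Gst, Clec4a, Ms4a6, H2-DMb families) are uncertain. Coordinates are from GENCODE M21 (GRCm38), promoters from RefSeq. Of 33459 identifiers 33406 have a symbol, and the other 53 took 0.0174% of gWAT reads.

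In edgeR 4.0.16 (R 4.3.3), genes were filtered with filterByExpr, scaled with TMM and tested with the quasi-likelihood F test on the 6 libraries, adjusted over all 15200 tested genes, which hold 99.84% of reads. The SE is the fold change divided by the square root of F. The biological coefficient of variation was 0.168. CPM use TMM-scaled totals, except the marker sums and the levels beside heart, which use plain totals, and list levels are means of log2 (CPM + 0.5). On simulated counts of 15004 genes the test recovered 66% of 100 changes of 2-fold and 96% of 100 changes of 4-fold, with 17 false calls of 179. No libraries were duplicates within a group, where the smallest chi-square per degree of freedom was 14.3.

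Named genes are Fhl2 and, for each direction, the 15 genes of smallest p at a mean of 10 CPM or more, a log2 change of at least 1 and groups that do not overlap, outside the macrophage and cell division lists and without predicted genes and pseudogenes, the 5 most abundant called in each direction, and up to 4 called members of each list. Other names were chosen after their values were seen, as were 10 gene families. The members and lists were chosen with earlier results of these data known. Lists are described by counts and medians without a set test. Alternatives were RLE scaling and none, no filter, a filter at a mean of 10 CPM, DESeq2 1.42.0, limma-voom (limma 3.58.1), a block for the replicate number, a fit of all 14 libraries and leaving out each library. Figures used matplotlib 3.10.9, tables pandas 2.3.3 in Python 3.11.15. The values of some called genes are not reported here.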

Additional observations from a re-analysis of the deposited data

How the results depend on the processing

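Against 834 calls (305 higher, 529 lower), edgeR called 1600 without a filter (585 higher, 1015 lower), 456 with a mean of at least 10 CPM (204 and 252) and 1725 in 1 fit of all 14 libraries (583 and 1142). DESeq2 called 1769 (671 and 1098) and limma-voom 477 (213 and 264). The higher share was 36.6% as reported and 44.7% with the 10 CPM filter and with limma-voom. RLE scaling gave 835 and library totals without scaling factors 773. With 1 library left out the counts ranged from 0 to 2908, the higher ones from 0 to 1201 and the lower ones from 0 to 1707.

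With the replicate number as a block, 0 genes were called, 0 higher and 0 lower (2921 at an unadjusted p under 0.05 in edgeR). Whether the numbers pair the libraries is not labelled. Deviations from the group means correlated between genotypes at −0.115 for number 1, −0.206 for number 3 and 0.0121 for number 4. With 3 libraries per group such values cannot exclude a pairing. The reason for the loss of calls with the block was not tested.

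Of the 229 called genes examined, 0 changed direction in any of 14 alternatives. The genes were called on the same gWAT libraries, so this is no separate support. Cxcl13, a B cell chemokine that was not called (1.87 ± 1.12), had its lowest value, −1.20, without KO replicate 3 and its highest, 2.40, without KO replicate 1, with KO replicate 3 at 22 CPM against 0.858 and 1.03 CPM in the other KO libraries. The median of 27 of 102 lists changed sign in some setting. Of the 32 lists with a median of at least 0.3 in size this happened in 2, B and plasma cells (−0.03 without KO replicate 3) and class I myosins (−0.30 with the 10 CPM filter). That filter left no tested member of the neutrophil, epididymis and testis, and lymph node lists, which have no value there. Depth limits genes such as Fhl2, Elovl3 and Rragd, which have few reads in KO.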

Other observations

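Gene families picked after their values were seen gave further groups, described here without a test of the family. All 20 cytoplasmic aminoacyl-tRNA synthetases, which charge tRNAs for translation, had negative values, with 4 called lower (Iars, Cars, Yars and Aars) and a median of −0.19. Iars was at 47.1, 56.6 and 50.5 CPM in WT and at 33.5, 34.4 and 35.6 CPM in KO libraries (−0.58 ± 0.10, adjusted p = 0.0285). Of their 17 mitochondrial counterparts edgeR, DESeq2 and limma-voom called 0 (1 at an unadjusted p under 0.05 in edgeR), with a median of 0.10. Among glutathione S-transferases and microsomal relatives 6 of 20 rose and 0 fell, with a median of 0.42. Mgst3 had little spread, at 81.0, 84.5 and 89.2 CPM in WT and 142, 136 and 139 CPM in KO libraries (0.71 ± 0.09, adjusted p = 0.0207). The flavin monooxygenases Fmo1 and Fmo5, which oxidise drugs and metabolites, rose by 1.03 ± 0.20 and 0.82 ± 0.15.

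Peroxisomal acyl-CoA enzymes gave 4 higher and 0 lower calls of 25. Eci3, an isomerase for unsaturated fatty acids, went from 6.01, 3.44 and 4.79 CPM to 13.2, 14.2 and 14.6 CPM (1.56 ± 0.20, adjusted p = 0.0209), with Acot4, Pxmp2 and Phyh the other calls. ABC transporters of the A family, which move lipids, had 4 of 10 higher (Abca2, Abca6, Abca8a and Abca8b) and a median of 0.46. On the lower side were 4 of 11 Toll-like receptors (Tlr1, Tlr7, Tlr8 and Tlr13), with Tlr13 at 38.6, 114 and 99.7 CPM in WT and 14.5, 17.9 and 15.5 CPM in KO libraries. The actin-branching Arp2/3 complex had 3 of 10 subunits lower, Actr3, Arpc5 and Arpc1b, and 3 of 6 CD300 receptors of myeloid cells fell, with a median of −1.72. For Toll-like and CD300 receptors the summed pan-macrophage level, 3290 to 8350 CPM in WT and 2660 to 2980 CPM in KO, moved in the same direction, and its part was not tested.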
